A study of Mus musculus with 9 samples.

Results

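Tormentic acid on top of a deficient diet was set against the deficient diet alone in mouse liver, as measured by RNA sequencing. The comparison took the 3 libraries of the TA group and the 3 of the model group, 6 of the 9 libraries in the series, by their labels, and used all genes of the deposited count table. Of 21898 genes in that table, 13200 had enough reads to be tested. All groups were C57BL/6 mice assigned at random. The TA group ate the MCD diet, which lacks methionine and choline, and received a high dose of tormentic acid, as labelled. The model group ate the same diet without tormentic acid. The normal group received saline, per the labels, and is used here to place the levels of the other groups. Its libraries also entered the choice of genes tested, the scaling and the estimate of spread behind each p-value. The labels do not say whether the model group received a vehicle, and the sources used here give neither the amount of tormentic acid nor the sex, the age or the hour of tissue collection of the mice.

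A diet without methionine and choline deprives the liver of the methyl donor S-adenosylmethionine and of the phosphatidylcholine needed to export fat in lipoproteins. Mice fed it develop fatty liver with inflammation and scarring within weeks, and lose body weight, which sets the model apart from the obesity-linked human disease. Tormentic acid is a pentacyclic triterpenoid found in plants of the rose family. Hepatocytes make most of the plasma proteins, divide their enzymes between a periportal zone (urea and amino acid breakdown) and a pericentral zone (drug metabolism), and share the tissue with Kupffer cells, recruited macrophages, stellate cells that lay down matrix, bile duct cells and a sinusoidal endothelium.

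TA libraries held 13710002 to 16464308 counts, model libraries 15519086 to 16086294 and normal libraries 13950065 to 16475794. In a principal component analysis of log2 CPM (counts scaled to a common library size), the first component placed TA libraries at -11.3 to 0.600, model libraries at -92.5 to -42.7 and normal libraries at 72.4 to 87.5. The model library nearest to the TA libraries was model replicate 2. Mitochondrial transcripts took 4.92%, 12.5% and 15.4% of the counts in TA replicates 1 to 3, against 11.6%, 7.55% and 7.36% in model replicates 1 to 3. The scaling factors, which correct for differences in RNA composition (TMM, trimmed mean of M-values), were 1.01, 0.893 and 0.801 in the TA libraries, against 1.41, 1.19 and 1.44 in the model libraries. The median gene lay at -0.01 (log2, TA minus model) with these factors and at -0.59 with library totals alone, so every change below is relative to the median gene. The labels do not say that the libraries came from separate mice, so p-values here reflect the spread among libraries, which may be technical.

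The promoters printed here belong to members of a pair of lists with many calls in 1 direction, so that the letters can be read beside the values. Subunits of the respiratory chain encoded in the nucleus formed the list with the largest share of members called in 1 direction with TMM factors (87.2%), calls that were lost with library totals, and the printed ones are its 3 members with the smallest p. Each run covers 250 bases before and 50 after the RefSeq start on GRCm38.p6, written along the gene's strand, and capitals mark matches to the TATA box TATAAA, the CCAAT box, the GC box GGGCGG, the E-box CACGTG, the AP-1 element TGACTCA, the ETS element GAGGAAG or the nuclear receptor half-site AGGTCA on either strand. No match in the printed runs shares letters with another, and in Ces2a 2 matches adjoin.

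Ndufa9 (chr6:126849095-126849394, minus strand): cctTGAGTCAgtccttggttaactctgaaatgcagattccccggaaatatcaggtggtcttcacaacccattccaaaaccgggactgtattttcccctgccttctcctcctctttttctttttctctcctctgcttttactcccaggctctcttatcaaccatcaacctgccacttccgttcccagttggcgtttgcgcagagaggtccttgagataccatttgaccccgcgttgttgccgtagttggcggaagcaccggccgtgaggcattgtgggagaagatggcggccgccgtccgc

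Ndufv1 (chr19:4012706-4013005, minus strand): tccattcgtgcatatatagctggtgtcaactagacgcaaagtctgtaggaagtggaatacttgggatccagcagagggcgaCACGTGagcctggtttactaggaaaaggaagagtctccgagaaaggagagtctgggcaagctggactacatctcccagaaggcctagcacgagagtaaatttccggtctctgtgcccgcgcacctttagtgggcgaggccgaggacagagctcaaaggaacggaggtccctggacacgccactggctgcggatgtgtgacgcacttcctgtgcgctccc

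Ndufs7 (chr10:80249199-80249498, plus strand): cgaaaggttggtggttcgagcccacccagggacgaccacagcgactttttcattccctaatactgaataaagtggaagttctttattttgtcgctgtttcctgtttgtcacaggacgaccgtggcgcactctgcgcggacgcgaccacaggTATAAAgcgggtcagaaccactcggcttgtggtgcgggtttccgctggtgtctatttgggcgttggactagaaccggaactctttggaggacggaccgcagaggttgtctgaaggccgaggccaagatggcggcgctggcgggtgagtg

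A second set comes from the pericentral and xenobiotic enzymes. That list was picked for this purpose after its values were seen, as the one with the largest share of members called higher in TA under library totals (21 of 35). With TMM factors 26 of the 35 were called higher, a smaller share than in the respiratory list.

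Ces2a (chr8:104733753-104734052, plus strand): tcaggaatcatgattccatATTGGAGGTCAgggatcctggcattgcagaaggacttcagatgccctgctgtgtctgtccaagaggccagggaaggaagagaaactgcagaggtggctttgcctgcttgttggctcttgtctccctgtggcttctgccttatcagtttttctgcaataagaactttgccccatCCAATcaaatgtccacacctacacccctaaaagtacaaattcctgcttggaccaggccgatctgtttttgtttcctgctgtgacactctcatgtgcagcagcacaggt

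Ugt1a1 (chr1:88211709-88212008, plus strand): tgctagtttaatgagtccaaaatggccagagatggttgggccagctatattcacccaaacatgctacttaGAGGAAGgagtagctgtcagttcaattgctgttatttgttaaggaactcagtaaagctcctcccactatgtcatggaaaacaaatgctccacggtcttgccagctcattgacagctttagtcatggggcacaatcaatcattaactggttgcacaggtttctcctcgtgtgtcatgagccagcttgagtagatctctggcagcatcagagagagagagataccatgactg

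Cyp2c29 (chr19:39286835-39287134, plus strand): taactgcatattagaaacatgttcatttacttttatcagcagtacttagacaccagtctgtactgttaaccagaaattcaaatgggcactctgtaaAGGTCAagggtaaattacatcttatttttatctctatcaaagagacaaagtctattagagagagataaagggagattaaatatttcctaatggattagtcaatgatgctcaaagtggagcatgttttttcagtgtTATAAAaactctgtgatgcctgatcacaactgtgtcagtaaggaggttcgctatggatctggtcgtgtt

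Each Nduf promoter held a single match, TGACTCA in Ndufa9, CACGTG in Ndufv1 and TATAAA in Ndufs7. Among 10512 promoters of tested genes, TGACTCA was found in 3.81%, CACGTG in 9.88% and TATAAA in 7.54%. In the 35 promoters of the respiratory list the shares were 8.57%, 2.86% and 5.71%. AGGTCA stood in the Ces2a and Cyp2c29 promoters. It was found in 9 of 27 promoters of the pericentral and xenobiotic list (33.3%) and in 12.7% of all promoters. CCAAT stood 2 times in the Ces2a promoter, in 55.6% of the 27 and in 38.6% of all promoters. TATAAA stood in that of Cyp2c29, in 29.6% of the 27 and in 7.54% of all promoters. GAGGAAG stood in that of Ugt1a1, in 14.8% of the 27 and in 13.5% of all promoters. GGGCGG was in none of the 6 printed. It was held by 62.7% of all promoters, 48.6% of the 35 and 22.2% of the 27. Differences between these shares were not tested. A match describes the letters only.

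TA livers had more transcript of hepatocyte enzymes and plasma proteins than model livers, and less of macrophage, inflammatory and cell cycle genes. Many single matrix genes were also lower, although their summed level overlapped between the groups. Of 13200 genes tested, 3031 were called (23.0%, adjusted p under 0.05), 1562 higher (11.8%) and 1469 lower (11.1%) in TA. With library totals in place of TMM factors, 6122 were called, of which 6.55% were higher, against 51.5% with TMM factors. As shares of all tested genes, library totals called 3.04% higher and 43.3% lower in TA, and counts given with library totals for the lists below are read against these shares. The authors' deposited table for this comparison called 1817 genes, 893 higher and 924 lower in TA. The calls made here included 1750 of those genes with the same direction, 96.3% of the authors' calls and 57.7% of the calls made here. All 3 TA libraries lay above all 3 model libraries for 19.0% of tested genes and below them for 20.1%. Each adjusted p below comes from edgeR's quasi-likelihood test with Benjamini-Hochberg adjustment over all genes tested, amounts after "rose by" and "fell by" are log2 fold changes, each ± after one is its standard error with n = 3 libraries per group, and values per library are CPM of replicates 1 to 3 in order. Where a named call is said to have ended, the alternatives listed leave out the fit with the replicate number as a block, whose effect is given with the other processing choices, while the ranges of adjusted p include it. No source used here says whether counting used strand, so reads of overlapping and antisense genes cannot be told apart.

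**Figure D1:**
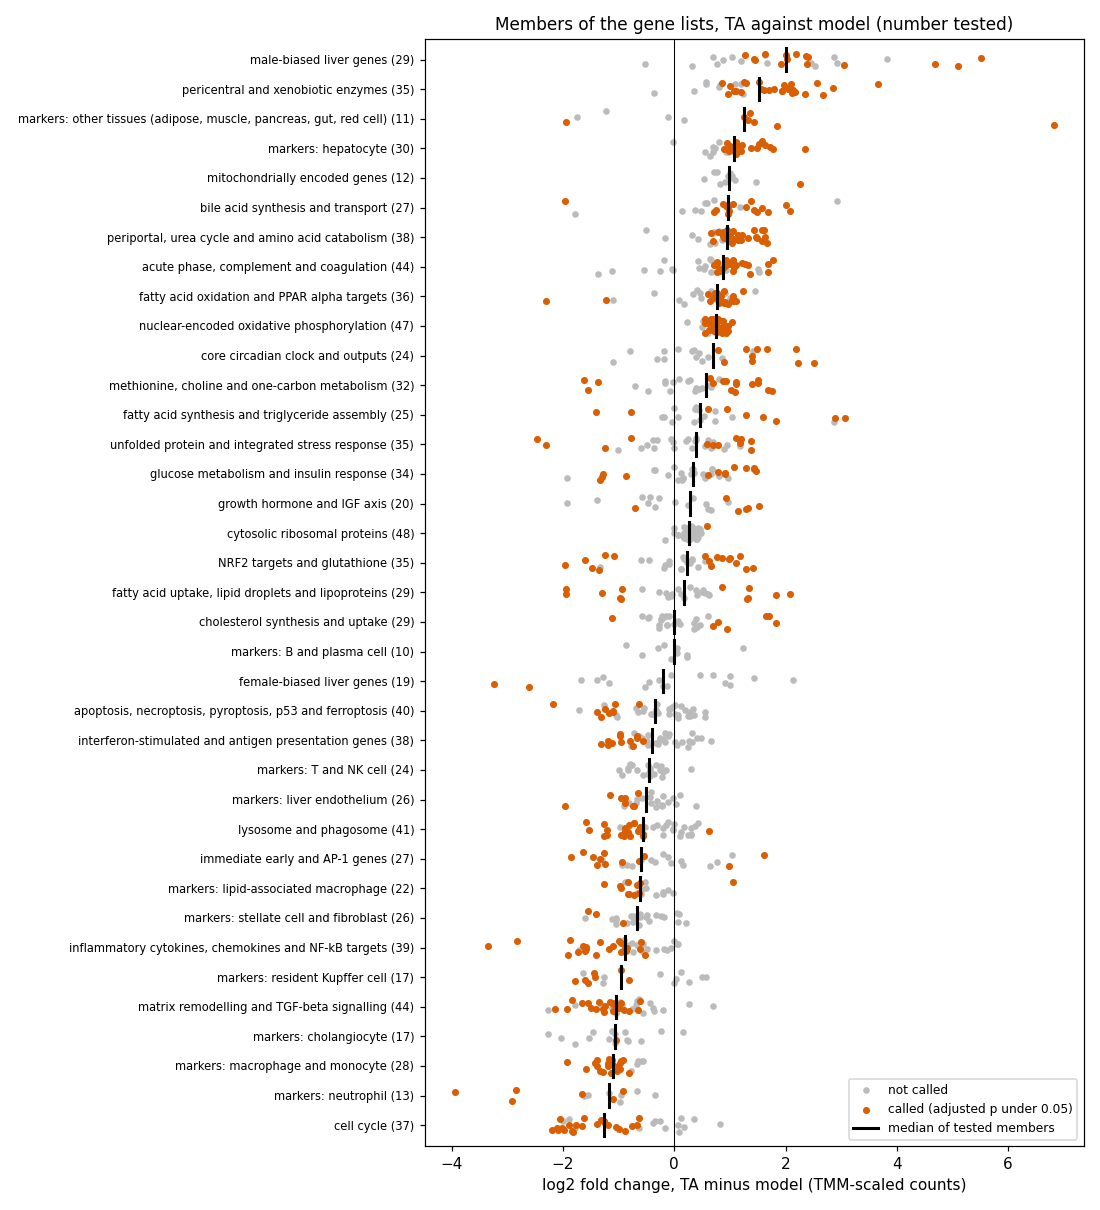
Log2 fold change (TA minus model, TMM-scaled counts) of every tested member of 37 gene lists, 1 row per list ordered by its median. Orange points are called genes, grey points are not called, and black bars are medians. Medians run from 2.01 for male-biased liver genes to -1.27 for cell cycle genes, and with library totals all medians lie lower. The point farthest to the right is Cfd, which had no counts in the model libraries.

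The 10 largest rises included enzymes and secreted proteins of hepatocytes. Inmt, which methylates indole amines with S-adenosylmethionine (ENSMUSG00000003477, chromosome 6, 55170626 to 55175043 on GRCm38), stood at 189, 388 and 592 CPM in the TA libraries, against 27.2, 35.4 and 19.1 CPM in the model libraries. The groups did not overlap, and the log2 fold change was 3.84 ± 0.39 (adjusted p = 0.00133). Its normal libraries had 466, 402 and 491 CPM, a range that the TA libraries overlapped. Clec2h, a C-type lectin-like gene (ENSMUSG00000030364, chromosome 6, 128662385 to 128677374), stood at 17.7, 11.3 and 8.96 CPM in the TA libraries, against 0.530, 1.36 and 0.606 CPM in the model libraries, a log2 fold change of 3.95 ± 0.46 (adjusted p = 0.00163). Upp2, a liver uridine phosphorylase (ENSMUSG00000026839, chromosome 2, 58567298 to 58792971), stood at 139.5, 549 and 434 CPM in the TA libraries, against 43.4, 37.7 and 29.8 CPM in the model libraries, a log2 fold change of 3.34 ± 0.47 (adjusted p = 0.00199). For both genes every TA library lay above every model library. Ces3b, a carboxylesterase, rose by 3.12 ± 0.70 (adjusted p = 0.0103), and the sulfotransferase gene Sult2a8 rose by 2.93 ± 0.77 (adjusted p = 0.0202). Thrsp, a regulator of fat synthesis also called Spot 14, stood at 15.05, 33.3 and 56.6 CPM in the TA libraries, against 1.85, 10.3 and 0.563 CPM in the model libraries, and rose by 3.07 ± 0.83 (adjusted p = 0.0223). The Sult2a8 call ended without TA replicate 3 or model replicate 3 (adjusted p over the alternatives 3.65e-05 to 0.0639). The Thrsp call ended without TA replicate 3, model replicate 1 or model replicate 3 (adjusted p over the alternatives 0.00138 to 0.0870).

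The 10 largest falls covered signalling, adhesion and metabolic genes. Inhbb, which encodes the beta B subunit of activin B (ENSMUSG00000037035, chromosome 1, 119415465 to 119422248), stood at 1.57, 3.92 and 4.001 CPM in the TA libraries, against 39.2, 18.7 and 27.8 CPM in the model libraries, a log2 fold change of -3.20 ± 0.40 (adjusted p = 0.00163). Its normal libraries had 4.20, 2.39 and 2.001 CPM, a range that the TA libraries overlapped. Cntnap1, a contactin-associated adhesion protein known from myelinated axons (ENSMUSG00000017167, chromosome 11, 101170523 to 101190724), stood at 2.96, 1.63 and 3.74 CPM in the TA libraries, against 24.3, 18.7 and 25.9 CPM in the model libraries, a log2 fold change of -3.05 ± 0.28 (adjusted p = 0.00131). Fam83a, a gene linked to growth factor signalling, had 3.32, 0.490 and 3.48 CPM in the TA libraries, against 20.7, 11.4 and 25.5 CPM in the model libraries, and fell by 2.96 ± 0.51 (adjusted p = 0.00374). The surface protein gene Ly6d stood at 26.5, 7.76 and 18.7 CPM in the TA libraries, against 68.8, 87.4 and 102 CPM in the model libraries, a log2 fold change of -2.28 ± 0.40 (adjusted p = 0.00420). Normal libraries had 0.516, 1.28 and 0.148 CPM, so the TA level of Ly6d lay between those of the other groups. Pcdh17, a protocadherin, changed by -2.68 ± 0.40 (adjusted p = 0.00243), the synaptic protein gene Rims3 by -2.39 ± 0.40 (adjusted p = 0.00371) and Mybl1, a transcription factor of the MYB family, by -2.35 ± 0.26 (adjusted p = 0.00156). The remaining large falls, in Cyp2a4, Psat1 and Fgf21, are described with their pathways.

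**Figure D2:**
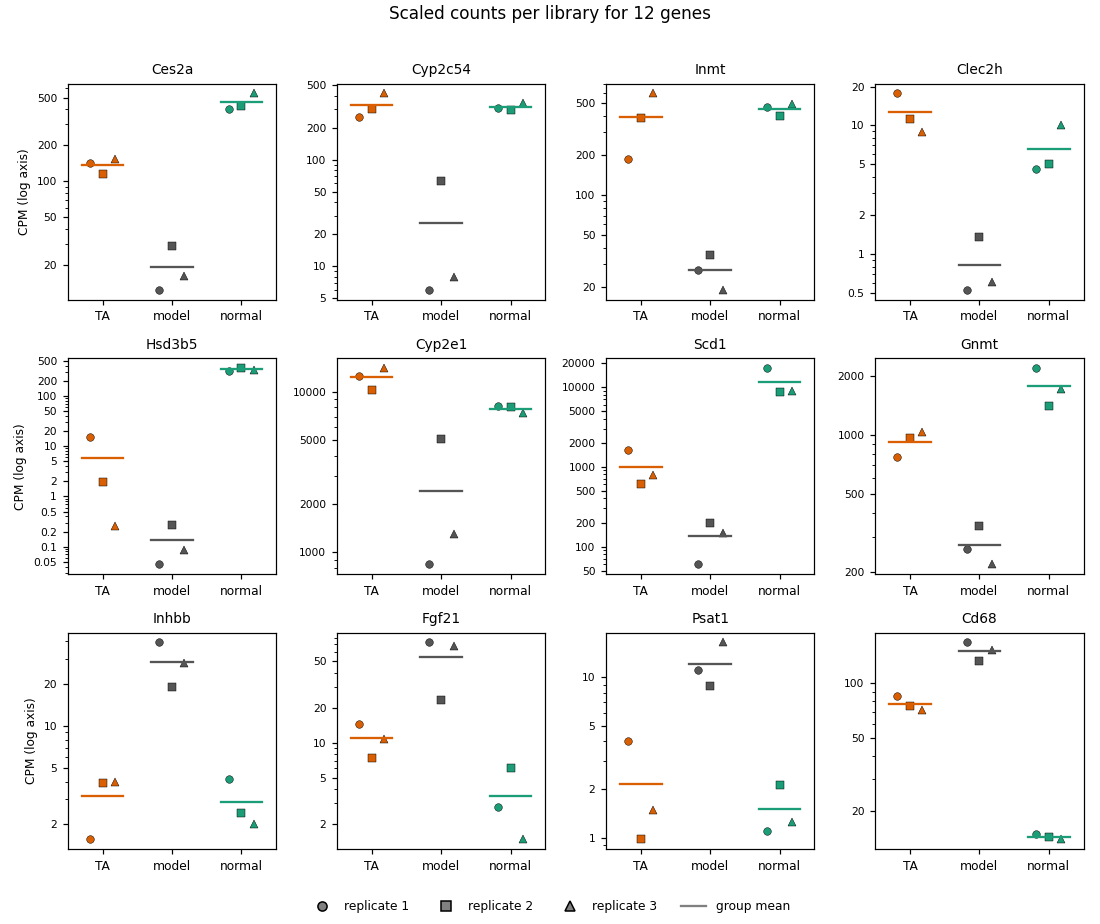
CPM (log axis) of 12 genes in each library, with TA at the left, model in the middle and normal at the right. Symbols mark replicates and lines mark group means (n = 3). Model replicate 2 is the model library nearest to TA for all 12 genes, and the TA and model libraries overlap only for Hsd3b5.

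Hepatocyte genes stood higher in TA livers as a group. Of the 30 hepatocyte markers, 21 rose, against 11.8% of all genes, and their median log2 fold change was 1.07. Summed over the list, they took 176361 to 225896 CPM in TA, 76094 to 128025 CPM in model and 201754 to 237546 CPM in normal libraries. In bulk tissue, fewer cells of a type and less RNA per cell cannot be told apart. Serpina1c, an alpha-1 antitrypsin gene, stood at 39.0, 54.1 and 63.5 CPM in the TA libraries, against 17.0, 17.1 and 11.7 CPM in the model libraries, with no overlap, and rose by 1.77 ± 0.23 (adjusted p = 0.00181). Tdo2, which opens the tryptophan ring, stood at 1064, 2086 and 1942 CPM in the TA libraries, against 490.1, 642 and 513 CPM in the model libraries, and rose by 1.63 ± 0.27 (adjusted p = 0.00356). Hpd, of tyrosine breakdown, rose by 1.58 ± 0.29 (adjusted p = 0.00501). Hpx, the haem-binding hemopexin, was the member with the smallest p among estimates below 0, at -0.03 ± 0.27 (adjusted p = 0.946). Serpina1 copies are nearly identical, so their reads may be assigned to the wrong copy. With library totals 13 markers rose, against 3.04% of all genes, and 1, Hpx, fell. With TMM factors, hepatocyte rises numbered 13 without model replicate 1 and 10 without model replicate 3. The summed markers of macrophages and monocytes moved the other way (given below with those cells), and their part in these results was not tested.

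The most abundant called transcripts were of the same kind. Alb, albumin, stood at 76541, 102902 and 100659 CPM in the TA libraries, against 31810.3, 54961 and 34666 CPM in the model libraries, and rose by 1.21 ± 0.36 (adjusted p = 0.0312). Apoa1, the main protein of high-density lipoprotein, stood at 8633, 10843 and 14264 CPM in the TA libraries, against 5382, 7106 and 4532 CPM in the model libraries, and rose by 0.99 ± 0.29 (adjusted p = 0.0298). Both genes were lowest in model replicates 1 and 3. Apoe, apolipoprotein E, made by hepatocytes and macrophages, rose by 1.06 ± 0.28 (adjusted p = 0.0218). Gc, the vitamin D-binding protein, rose by 0.91 ± 0.26 (adjusted p = 0.0275). Cyp2e1, a pericentral P450 that oxidises ethanol, stood at 12584, 10266 and 14057 CPM in the TA libraries, against 841, 5111 and 1299 CPM in the model libraries, and rose by 2.35 ± 0.56 (adjusted p = 0.0131). Cyp3a11, a main drug-metabolising P450 of mouse liver, stood at 7106, 4897 and 7568 CPM in the TA libraries, against 1052, 2889.6 and 1731 CPM in the model libraries, without overlap, and rose by 1.79 ± 0.39 (adjusted p = 0.00906). The Alb call ended with no filter, with only 6 libraries or without TA replicate 2, TA replicate 3, model replicate 1 or model replicate 3 (adjusted p over the alternatives 1.38e-05 to 0.119). The Apoa1 and Gc calls ended with library totals, with only 6 libraries or without TA replicate 2, TA replicate 3, model replicate 1 or model replicate 3 (adjusted p over the alternatives 0.000247 to 0.125 and 0.000114 to 0.128). The Apoe call ended with only 6 libraries or without TA replicate 2, TA replicate 3, model replicate 1 or model replicate 3 (adjusted p over the alternatives 5.27e-07 to 0.0882). The Cyp2e1 call ended without model replicate 3 (adjusted p over the alternatives 0.000107 to 0.0535).

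Pericentral and xenobiotic enzymes held the second largest median of the lists. Of 35 tested, 26 rose, with a median of 1.52, and with library totals 21 rose, Ahr fell and the median was 0.97. Ces2a, the carboxylesterase whose promoter is printed above (ENSMUSG00000055730, chromosome 8, 104734003 to 104741634), stood at 142, 116 and 154 CPM in the TA libraries, against 12.4, 28.8 and 16.1 CPM in the model libraries. The groups did not overlap, and it rose by 2.85 ± 0.30 (adjusted p = 0.00142). Its normal libraries had 404, 431 and 545 CPM, above every TA library. Ces1d, a carboxylesterase that also hydrolyses triglyceride (ENSMUSG00000056973, chromosome 8, 93166068 to 93197838), stood at 206, 333 and 332 CPM in the TA libraries, against 65.3, 78.8 and 78.1 CPM in the model libraries, and rose by 1.97 ± 0.22 (adjusted p = 0.00162). Ugt1a1, which conjugates bilirubin, stood at 37.1, 27.0 and 26.7 CPM in the TA libraries, against 9.18, 12.3 and 10.2 CPM in the model libraries, and rose by 1.52 ± 0.18 (adjusted p = 0.00163). Its exons are partly shared with the other Ugt1a genes. Cyp2c29, whose promoter is also printed above, stood at 186, 232 and 326 CPM in the TA libraries, against 43.1, 77.1 and 52.2 CPM in the model libraries, and rose by 2.11 ± 0.29 (adjusted p = 0.00193). Cyp2c54 had 255, 298 and 421 CPM in the TA libraries, against 6.004, 63.3 and 7.97 CPM in the model libraries, and rose by 3.66 ± 0.74 (adjusted p = 0.00680), with model replicate 2 far above the other model libraries. The Cyp2c and Ces genes are close copies, and their reads may be divided wrongly. Ahr, the receptor for aromatic hydrocarbons, stood at -0.36 ± 0.26 (adjusted p = 0.339). The medians of this list in the comparisons that share libraries were -1.62 for model against normal and 0.04 for TA against normal, each sharing 1 group of libraries with TA against model.

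Periportal enzymes and those of urea and amino acid breakdown also stood higher. Of 38 tested, 26 rose, with a median of 0.95, and with library totals 14 rose and Got1 fell. Ivd, isovaleryl-CoA dehydrogenase of leucine breakdown, stood at 239, 219 and 269 CPM in the TA libraries, against 88.9, 120.3 and 80.8 CPM in the model libraries, and rose by 1.33 ± 0.20 (adjusted p = 0.00233). Bckdha, a subunit of the branched-chain keto acid dehydrogenase, stood at 64.7, 57.1 and 52.4 CPM in the TA libraries, against 23.5, 32.8 and 28.0 CPM in the model libraries, and rose by 1.05 ± 0.16 (adjusted p = 0.00247). Neither gene overlapped between the groups. Got1, the cytosolic aspartate transaminase, stood at -0.51 ± 0.38 (adjusted p = 0.359), the smallest p among members with an estimate below 0. With TMM factors, periportal rises numbered 14 without TA replicate 3, 17 without model replicate 1 and 13 without model replicate 3. The medians were 1.52 for the pericentral and xenobiotic list and 0.95 for the periportal one, a difference that was not tested.

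Secreted proteins of host defence and clotting showed the same direction. Of 44 genes of the acute phase, complement and coagulation, 24 rose, with a median of 0.87. With library totals 9 rose and 5 fell, the 5 being Cp, Steap4, Lcn2, Hpx and Hamp. Proc, the anticoagulant protein C, stood at 549, 622 and 713 CPM in the TA libraries, against 206, 331 and 214 CPM in the model libraries, and rose by 1.33 ± 0.22 (adjusted p = 0.00356). Saa4, the constitutive serum amyloid A, stood at 289, 313 and 381 CPM in the TA libraries, against 50.9, 169 and 84.6 CPM in the model libraries, and rose by 1.69 ± 0.36 (adjusted p = 0.00807). Both were separated from the model libraries. Crp, C-reactive protein, rose by 1.21 ± 0.26 (adjusted p = 0.00812) and F7, clotting factor VII, by 0.98 ± 0.20 (adjusted p = 0.00772). Lcn2, lipocalin 2, an iron-binding protein induced by injury, stood at 79.0, 53.6 and 168 CPM in the TA libraries, against 297, 316 and 167 CPM in the model libraries, with overlapping groups, and its change of -1.38 ± 0.63 (adjusted p = 0.138) did not pass the test. Acute phase rises numbered 13 without TA replicate 2, 14 without TA replicate 3, 11 without model replicate 1 and 6 without model replicate 3. The F7 call ended with library totals (adjusted p over the alternatives 0.000221 to 0.0599).

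Genes that male mice express above females in liver had the largest median of the lists, although no source used here gives the sex of these mice. Growth hormone, released in pulses in males and more steadily in females, sets this pattern through STAT5B. Of 29 male-biased genes 15 rose, with a median of 2.01, and library totals gave 10 rises. The medians were -4.28 for model against normal and -2.36 for TA against normal, which share the model or TA libraries. Hsd3b5, a steroid reductase of male liver (ENSMUSG00000038092, chromosome 3, 98618634 to 98630252), stood at 15.3, 1.96 and 0.261 CPM in the TA libraries, against 0.0442, 0.272 and 0.0866 CPM in the model libraries. TA replicate 3 lay within the model range, and the log2 fold change was 5.51 ± 1.20 (adjusted p = 0.00919), on 8 counts in the whole model group. Its normal libraries had 321, 361 and 328 CPM, far above both. Ugt2b1, a glucuronosyltransferase, stood at 258, 285 and 304 CPM in the TA libraries, against 62.2, 133 and 119 CPM in the model libraries, and rose by 1.43 ± 0.26 (adjusted p = 0.00498). Serpina3k, a serine protease inhibitor, rose by 2.19 ± 0.43 (adjusted p = 0.00606). Mup3, a major urinary protein gene, stood at 2056, 2832 and 2873 CPM in the TA libraries, against 85.5, 697 and 155 CPM in the model libraries, and rose by 3.05 ± 0.63 (adjusted p = 0.00762). Mup7 stood at 356, 73.2 and 35.1 CPM in the TA libraries, against 1.37, 11.96 and 0.520 CPM in the model libraries, and rose by 5.09 ± 1.21 (adjusted p = 0.0135), and Mup19 by 4.91 ± 1.17 (adjusted p = 0.0135). Mup genes are near-identical copies, so reads may be divided wrongly among them. Mup21 stood at -0.54 ± 1.11 (adjusted p = 0.760), the smallest p among estimates below 0. Male-biased rises numbered 7 without TA replicate 1, 5 without model replicate 1, 25 without model replicate 2 and 6 without model replicate 3. The Hsd3b5 call ended with limma-voom (adjusted p over the alternatives 0.00306 to 0.105). The Mup7 call ended without model replicate 1 (adjusted p over the alternatives 0.000850 to 0.0533). The Mup19 call ended with limma-voom or without model replicate 1 or model replicate 3 (adjusted p over the alternatives 0.00225 to 0.113).

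Of 19 female-biased genes tested, 2 fell (a share near the 11.1% of all genes), with a median of -0.21. The sign of that median turned without TA replicate 1 (0.20) and without model replicate 1 (0.23). Female-biased falls numbered 4 without model replicate 2 and 6 with library totals. Without TA replicate 1, model replicate 1 or model replicate 2, 1 member was called higher. Summed over the list, these genes took 2639 to 3407 CPM in TA, 1072 to 2409 CPM in model and 265 to 895 CPM in normal libraries. Their sum was thus higher in every TA library than in every model library, against the sign of the median. Cyp2a4, a steroid hydroxylase of female liver (ENSMUSG00000074254, chromosome 7, 26307169 to 26315088), stood at 3.75, 24.8 and 10.1 CPM in the TA libraries, against 141, 40.0 and 54.3 CPM in the model libraries, and fell by 2.62 ± 0.60 (adjusted p = 0.0110). All 3 normal libraries had almost none (0.0737, 0 and 0 CPM). Reads of Cyp2a4 are hard to separate from those of Cyp2a5, which moved the other way (log2 fold change 1.94, chosen after its value was seen). Sult2a2, a hydroxysteroid sulfotransferase, stood at 0.121, 0.245 and 0.522 CPM in the TA libraries, against 4.68, 0.543 and 2.95 CPM in the model libraries, and fell by 3.24 ± 0.86 (adjusted p = 0.0253). Cyp17a1, which makes sex steroid precursors, stood at -1.69 ± 0.57 (adjusted p = 0.0539), and Cyp4a14, a fatty acid hydroxylase, at 0.999 ± 0.56 (adjusted p = 0.217), without a call. Atp6v0d2, a proton pump subunit that macrophages also express, stood at -0.53 ± 0.26 (adjusted p = 0.155). The Cyp2a4 call ended without TA replicate 3 (adjusted p over the alternatives 0.00303 to 0.0511). The Sult2a2 call ended with limma-voom or without TA replicate 1, TA replicate 2, TA replicate 3, model replicate 1 or model replicate 3 (adjusted p over the alternatives 0.00270 to 0.103).

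In the growth hormone and insulin-like growth factor axis, 5 of 20 rose and 1 fell, against 11.8% and 11.1% of all genes. The median of 0.29 became -0.29 with library totals and -0.17 without TA replicate 1. Library totals called 3 of them higher (Ghr, Igfbp4 and Prlr) and 5 lower, Bcl6 among those. Of all genes, those totals called 3.04% higher and 43.3% lower. Ghr, the growth hormone receptor, stood at 329.8, 398 and 472 CPM in the TA libraries, against 77.7, 214 and 127 CPM in the model libraries, and rose by 1.52 ± 0.32 (adjusted p = 0.00771), with no overlap. Igfbp4, a carrier of insulin-like growth factors, rose by 1.14 ± 0.23 (adjusted p = 0.00678), and Prlr, the prolactin receptor, by 1.32 ± 0.32 (adjusted p = 0.0141). Igfals, the acid-labile subunit of the circulating growth factor complex, and Igfbp2, another carrier, were the other rises, at log2 1.29 and 0.93, both named after their values were seen. Bcl6, a repressor of growth hormone target genes, stood at 16.1, 24.2 and 18.4 CPM in the TA libraries, against 27.5, 35.4 and 32.9 CPM in the model libraries, and fell by 0.71 ± 0.19 (adjusted p = 0.0210). Growth hormone axis rises numbered 3 without TA replicate 3, 2 without model replicate 1 and 2 without model replicate 3. The Prlr call ended without model replicate 1 or model replicate 3 (adjusted p over the alternatives 0.000381 to 0.0600). The Bcl6 call ended without TA replicate 1, TA replicate 3 or model replicate 3 (adjusted p over the alternatives 0.00105 to 0.0729).

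Genes of fat synthesis, export, use and uptake moved in different directions. Of 25 genes of fatty acid synthesis and triglyceride assembly, 7 rose and 2 fell, the share of falls being below the 11.1% of all genes. The median of 0.46 became -0.11 with library totals. Those totals called 4 higher (Scd1, Mlxipl, Dgat2 and Thrsp) and 4 lower (Scd2, G6pdx, Fads1 and Fads2). Of all genes, they called 3.04% higher and 43.3% lower. Scd1, the main stearoyl-CoA desaturase of liver (ENSMUSG00000037071, chromosome 19, 44394455 to 44407879), stood at 1605, 601 and 783 CPM in the TA libraries, against 59.7, 196 and 146 CPM in the model libraries, and rose by 2.89 ± 0.51 (adjusted p = 0.00435). The groups did not overlap, and its normal libraries had 17281, 8552 and 8945 CPM. Mlxipl, which encodes the carbohydrate-responsive factor ChREBP, stood at 227, 261 and 228 CPM in the TA libraries, against 58.9, 106 and 73.9 CPM in the model libraries, and rose by 1.59 ± 0.22 (adjusted p = 0.00199). Dgat2, which forms triglyceride, rose by 1.28 ± 0.24 (adjusted p = 0.00539). Scd2, a desaturase of other tissues, stood at 17.0, 11.8 and 8.18 CPM in the TA libraries, against 38.8, 26.1 and 34.2 CPM in the model libraries, and fell by 1.41 ± 0.25 (adjusted p = 0.00393). The other fall was G6pdx, which supplies NADPH (log2 -0.78, named after its value was seen). Fat synthesis rises numbered 4 without TA replicate 2, 3 without model replicate 1, 12 without model replicate 2 and 4 without model replicate 3.

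Of 29 genes of fatty acid uptake, lipid droplets and lipoproteins, 6 rose and 6 fell, with a median of 0.18. With library totals the median was -0.40, against -0.59 for all genes. Those totals called 10 lower and 5 higher, against 43.3% and 3.04% of all genes. Slc27a5, Fitm1 and Fabp1 were among the 5. Slc27a5, a fatty acid transporter and bile acid-CoA ligase (ENSMUSG00000030382, chromosome 7, 12988346 to 12998192), stood at 909, 762 and 786 CPM in the TA libraries, against 119.6, 280.3 and 184 CPM in the model libraries, and rose by 2.07 ± 0.29 (adjusted p = 0.00199). Fitm1, which helps form lipid droplets, rose by 1.83 ± 0.29 (adjusted p = 0.00291), and Fabp1, the liver fatty acid-binding protein, by 1.30 ± 0.28 (adjusted p = 0.00832). These 3 genes did not overlap between the groups. Cidec, which enlarges lipid droplets (ENSMUSG00000030278, chromosome 6, 113424634 to 113435760), stood at 25.9, 10.5 and 21.0 CPM in the TA libraries, against 94.7, 55.3 and 72.1 CPM in the model libraries, and fell by 1.95 ± 0.30 (adjusted p = 0.00289). Its normal libraries, at 3.09, 4.94 and 3.56 CPM, were below every TA library. Lpl and Cd36, which bring fat into cells and are also macrophage genes, fell by 0.95 ± 0.20 (adjusted p = 0.00852) and 0.97 ± 0.23 (adjusted p = 0.0122). Fat uptake rises numbered 12 without model replicate 2.

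Genes of fatty acid oxidation and PPAR alpha targets more often rose than fell. Of 36 tested, 20 rose and 2 fell, with a median of 0.77, while with library totals Acot2, Pdk4 and Fgf21 fell, Acaa2 was among the 2 that rose, and the median was 0.24. Acaa2, the mitochondrial thiolase, stood at 893, 886 and 1009 CPM in the TA libraries, against 401, 577 and 369 CPM in the model libraries, and rose by 1.05 ± 0.21 (adjusted p = 0.00683). Acot4, a peroxisomal thioesterase, rose by 0.89 ± 0.17 (adjusted p = 0.00531). Acot2, a mitochondrial thioesterase, stood at 23.1, 14.0 and 20.8 CPM in the TA libraries, against 54.3, 37.2 and 43.9 CPM in the model libraries, and fell by 1.22 ± 0.24 (adjusted p = 0.00655). Acot genes lie in a cluster of close copies, and the division of their reads is uncertain. Oxidation gene rises numbered 13 without TA replicate 2, 8 without TA replicate 3, 6 without model replicate 1 and 5 without model replicate 3. The Acot4 call ended with library totals (adjusted p over the alternatives 6.20e-05 to 0.154).

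Among 29 genes of cholesterol synthesis and uptake 6 rose and 1 fell, against 11.8% and 11.1% of all genes, and the median was 0.00. That median was 0.44 without model replicate 2 and -0.29 without model replicate 1. Library totals called 3 higher (Abcg5, Abcg8 and Tm7sf2) and 8 lower, against 3.04% and 43.3% of all genes. The median with those totals was -0.51, against -0.59 for all genes. Abcg5 and Abcg8, which together pump sterols into bile, rose by 1.64 ± 0.25 (adjusted p = 0.00273) and 1.70 ± 0.27 (adjusted p = 0.00295). Abcg5 stood at 70.8, 98.4 and 102 CPM in the TA libraries, against 24.9, 39.0 and 23.0 CPM in the model libraries, with no overlap. Tm7sf2, a sterol reductase, stood at 86.9, 60.1 and 59.5 CPM in the TA libraries, against 9.93, 32.1 and 16.7 CPM in the model libraries, and rose by 1.82 ± 0.34 (adjusted p = 0.00527). Abcg1, a cholesterol exporter of macrophages, stood at 28.6, 35.5 and 32.5 CPM in the TA libraries, against 81.7, 59.7 and 69.7 CPM in the model libraries, and fell by 1.13 ± 0.16 (adjusted p = 0.00199). Cholesterol gene rises numbered 3 without model replicate 1 and 3 without model replicate 3.

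Bile acid genes were more often higher. Of 27 genes of bile acid synthesis and transport, 16 rose and 1 fell, with a median of 0.97 by TMM factors and 0.41 by library totals, which called 7 higher and Abcc4 and Cyp7a1 lower. Nr0b2, the bile acid-responsive repressor SHP (ENSMUSG00000037583, chromosome 4, 133553376 to 133556536), stood at 53.6, 45.0 and 70.8 CPM in the TA libraries, against 23.2, 16.4 and 20.6 CPM in the model libraries, and rose by 1.49 ± 0.24 (adjusted p = 0.00300). Fgfr4, the receptor for the intestinal hormone FGF15, stood at 49.7, 44.2 and 42.4 CPM in the TA libraries, against 26.9, 29.5 and 26.5 CPM in the model libraries, and rose by 0.72 ± 0.13 (adjusted p = 0.00491). Abcc4, which exports bile acids back into blood (ENSMUSG00000032849, chromosome 14, 118482692 to 118706219), stood at 4.90, 4.98 and 3.13 CPM in the TA libraries, against 16.8, 12.2 and 21.8 CPM in the model libraries, and fell by 1.96 ± 0.31 (adjusted p = 0.00311). All these genes were separated between the groups. Bile acid gene rises numbered 7 without model replicate 1 and 7 without model replicate 3. The Fgfr4 call ended with library totals (adjusted p over the alternatives 3.85e-05 to 0.441).

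Methionine, choline and one-carbon metabolism is the pathway whose substrates the diet withholds from both groups. Of 32 genes tested, 13 rose and 3 fell, the share of falls being near the 11.1% of all genes. The median of 0.56 became -0.03 with library totals. Those totals called 6 higher and 8 lower, against 3.04% and 43.3% of all genes. Gnmt, which spends S-adenosylmethionine on glycine (ENSMUSG00000002769, chromosome 17, 46725664 to 46729168), stood at 768, 962 and 1035 CPM in the TA libraries, against 260.0, 339.8 and 217 CPM in the model libraries, and rose by 1.76 ± 0.25 (adjusted p = 0.00216). No library overlapped, and the normal libraries had 2190.0, 1392 and 1703 CPM. Ahcy, which clears S-adenosylhomocysteine, stood at 1485, 1643 and 2170.3 CPM in the TA libraries, against 549.8, 744 and 352 CPM in the model libraries, and rose by 1.69 ± 0.28 (adjusted p = 0.00364). Aldh7a1 and Sardh, which act in choline and sarcosine breakdown, rose by 1.40 ± 0.22 (adjusted p = 0.00300) and 1.51 ± 0.27 (adjusted p = 0.00434). Chka, the first kinase of phosphatidylcholine synthesis from choline, stood at 64.5, 35.0 and 34.4 CPM in the TA libraries, against 75.2, 81.0 and 191 CPM in the model libraries, and fell by 1.37 ± 0.35 (adjusted p = 0.0180). The other falls were Mthfd2 and Mthfd1l, folate enzymes of mitochondria, at log2 -1.62 and -1.55, both named after their values were seen. One-carbon rises numbered 8 without model replicate 1 and 8 without model replicate 3. The falls numbered 1 without TA replicate 3 or model replicate 1, and all 3 ended without model replicate 3. The Chka call ended without TA replicate 2, TA replicate 3 or model replicate 3 (adjusted p over the alternatives 0.000842 to 0.0763).

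Among 34 glucose genes 9 rose and 4 fell, the share of falls being near the 11.1% of all genes. The median of 0.34 became -0.23 with library totals, which called 4 higher, Pck1 among them, and 9 lower. Pck1, the gluconeogenic carboxykinase, stood at 2864, 5686 and 5463 CPM in the TA libraries, against 1660.4, 1733 and 1825 CPM in the model libraries, and rose by 1.42 ± 0.28 (adjusted p = 0.00622). Hk3, a hexokinase of myeloid cells, stood at 27.1, 23.2 and 19.8 CPM in the TA libraries, against 66.7, 49.0 and 54.8 CPM in the model libraries, and fell by 1.28 ± 0.17 (adjusted p = 0.00183). Hk2, a hexokinase of muscle and dividing cells, fell by 1.34 ± 0.23 (adjusted p = 0.00400), and Pkm, the pyruvate kinase of tissues other than adult liver, by 1.31 ± 0.18 (adjusted p = 0.00199). The other fall was Hk1, at log2 -0.88, named after its value was seen. Glucose gene rises numbered 14 without model replicate 2 and 3 without model replicate 3.

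Nuclear-encoded subunits of the respiratory chain, the genes of the first printed promoters, were mostly called higher with TMM factors, by small amounts. Of 47 tested, 41 rose with TMM factors, with estimates from 0.23 to 1.03 and a median of 0.75. With library totals the median was 0.17 and edgeR called none of the 47, with 1 higher at an unadjusted p under 0.05, so this movement is one relative to the median gene. With TMM factors limma-voom called 41 higher, and DESeq2 with its size factors called 42. Ndufa9, a subunit of complex I (ENSMUSG00000000399, chromosome 6, 126821721 to 126849136), stood at 78.6, 84.1 and 93.1 CPM in the TA libraries, against 42.1, 58.7 and 46.1 CPM in the model libraries, and rose by 0.80 ± 0.16 (adjusted p = 0.00611). Ndufv1, which binds NADH (ENSMUSG00000037916, chromosome 19, 4007384 to 4012806), stood at 126, 121 and 124 CPM in the TA libraries, against 62.8, 85.2 and 68.1 CPM in the model libraries, and rose by 0.78 ± 0.15 (adjusted p = 0.00611). Ndufs7, an iron-sulfur subunit (ENSMUSG00000020153, chromosome 10, 80249121 to 80256794), stood at 60.9, 77.2 and 89.9 CPM in the TA libraries, against 46.9, 44.9 and 33.3 CPM in the model libraries, and rose by 0.86 ± 0.18 (adjusted p = 0.00783). The groups did not overlap for any of these. Ndufa4 of complex IV rose by 0.96 ± 0.20 (adjusted p = 0.00807). Respiratory chain rises numbered 23 without TA replicate 2, 13 without TA replicate 3, 24 without model replicate 1 and 6 without model replicate 3. The Ndufa9, Ndufv1, Ndufs7 and Ndufa4 calls ended with library totals (adjusted p over the alternatives 5.35e-05 to 0.177, 9.45e-06 to 0.235, 0.000341 to 0.165 and 5.58e-05 to 0.0596).

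Of the 12 mitochondrially encoded genes, 1 rose, a share below the 11.8% of all genes. The median was 0.98 by TMM factors and 0.34 by library totals. Without TA replicate 1, the library with the lowest mitochondrial share, 11 of the 12 rose and the median was 1.34. Without TA replicate 3 the median was 0.53. mt-Co3, a subunit of complex IV, stood at 30.6, 142 and 235 CPM in the TA libraries, against 37.0, 23.9 and 24.5 CPM in the model libraries, with overlap, and rose by 2.25 ± 0.57 (adjusted p = 0.0166). mt-Nd4 stood at 3503, 10129 and 14745 CPM in the TA libraries, against 5515, 4638 and 3620.1 CPM in the model libraries, a log2 change of 1.04 ± 0.42 (adjusted p = 0.0970). TA replicate 1 was the lowest TA library for mt-Nd4, and model replicate 1 the highest model library, as for the mitochondrial share of counts. Of 48 cytosolic ribosomal proteins, 1 rose, also below that share of all genes. The median was 0.26 under TMM factors and -0.33 under library totals. Those totals called 4 lower, Rpl3 with the smallest p, against 43.3% of all genes. The gene called with TMM factors was Rps2, at 0.59 ± 0.18 (adjusted p = 0.0339). Rpl7a stood at 0.48 ± 0.17 (adjusted p = 0.0655). The mt-Co3 call ended without TA replicate 3 or model replicate 3 (adjusted p over the alternatives 0.00258 to 0.0741). The Rps2 call ended with library totals, with no filter, with only 6 libraries or without TA replicate 2, TA replicate 3, model replicate 1, model replicate 3, normal replicate 1, normal replicate 2 or normal replicate 3 (adjusted p over the alternatives 6.88e-05 to 0.971).

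**Figure D3:**
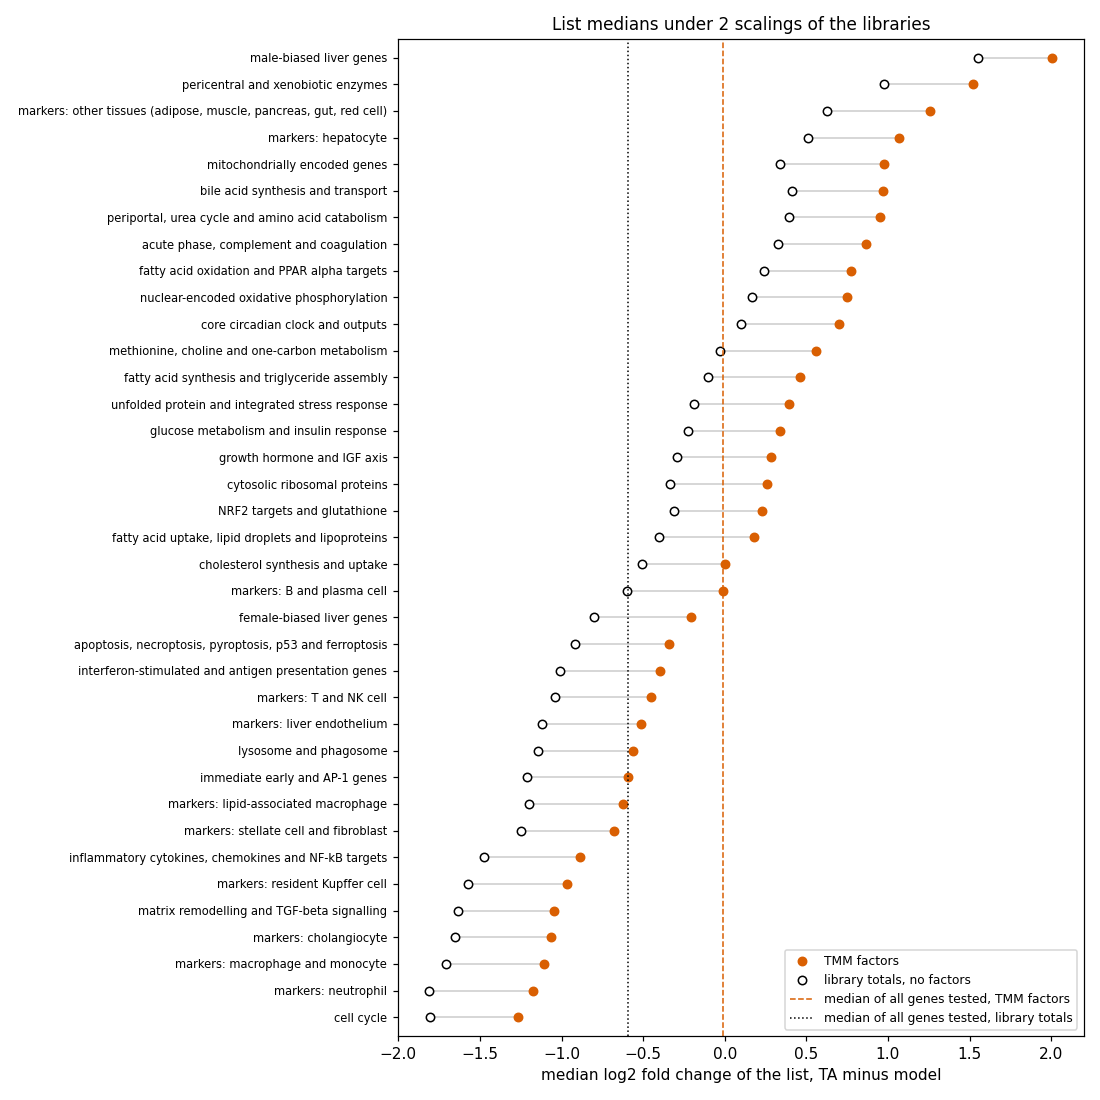
Median log2 fold change (TA minus model) of each gene list with TMM factors (orange) and with library totals (open circles). The dashed and dotted lines are the medians of all genes tested, at -0.01 and -0.59. Lists between cholesterol synthesis and methionine metabolism cross 0 with the scaling, and the order of the lists stays nearly the same.

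Macrophage transcripts stood lower in TA livers. Of 28 macrophage and monocyte markers, 22 fell, against 11.1% of all genes. Their median was -1.11, and all estimates were below 0. Library totals called 27 lower. The list summed to 1896 to 2543 CPM in TA, 4208 to 5538 CPM in model and 638 to 787 CPM in normal libraries, so TA lay between the other groups. Cd68, a lysosomal protein of macrophages (ENSMUSG00000018774, chromosome 11, 69664213 to 69666153), stood at 84.8, 75.0 and 71.2 CPM in the TA libraries, against 168, 133 and 153 CPM in the model libraries, and fell by 0.97 ± 0.14 (adjusted p = 0.00234). Normal livers had 14.9, 14.4 and 14.0 CPM of Cd68. Adgre1, which encodes F4/80 (ENSMUSG00000004730, chromosome 17, 57358691 to 57483527), stood at 36.0, 53.7 and 18.5 CPM in the TA libraries, against 158, 116 and 140.0 CPM in the model libraries, and fell by 1.93 ± 0.30 (adjusted p = 0.00291). Csf1r, the receptor for the macrophage growth factor, stood at 142, 183 and 118 CPM in the TA libraries, against 426, 359 and 326 CPM in the model libraries, and fell by 1.33 ± 0.19 (adjusted p = 0.00218). Cybb, the catalytic subunit of the phagocyte NADPH oxidase, stood at 90.0, 100.1 and 70.2 CPM in the TA libraries, against 312, 228 and 244 CPM in the model libraries, and fell by 1.59 ± 0.19 (adjusted p = 0.00163). In all 4 genes every TA library lay below every model library.

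Markers of resident Kupffer cells gave 7 falls among 17, with a median of -0.96 and summed levels of 754 to 1369 CPM in TA, 1693 to 2488 CPM in model and 1122 to 1391 CPM in normal libraries. Cd5l, a scavenger protein secreted by macrophages (ENSMUSG00000015854, chromosome 3, 87357881 to 87371073), stood at 91.2, 326 and 160.2 CPM in the TA libraries, against 841, 629.8 and 527 CPM in the model libraries, and fell by 1.79 ± 0.38 (adjusted p = 0.00821). Vsig4, a complement receptor of resident macrophages, stood at 13.7, 68.5 and 37.1 CPM in the TA libraries, against 149, 112 and 87.2 CPM in the model libraries, and fell by 1.55 ± 0.42 (adjusted p = 0.0236). Il18bp, which neutralises interleukin 18, fell by 1.45 ± 0.30 (adjusted p = 0.00788), and Hmox1, haem oxygenase 1, by 1.61 ± 0.22 (adjusted p = 0.00190). Timd4, a receptor for dying cells, stood at 0.363, 8.003 and 3.83 CPM in the TA libraries, against 3.62, 2.72 and 1.69 CPM in the model libraries, with overlap, and at 0.58 ± 0.67 (adjusted p = 0.563) was not called. The adjusted p of Timd4 over the alternatives was 0.0486 to 0.965. Kupffer cell falls numbered 3 without TA replicate 3 and 3 without model replicate 1, and 11 with library totals. Without TA replicate 1, 2 Kupffer cell markers were called higher and 6 lower, with a median of -0.65. The Vsig4 call ended with only 6 libraries or without TA replicate 3 or model replicate 1 (adjusted p over the alternatives 0.00141 to 0.0855).

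Markers of lipid-associated macrophages, which gather around fat-laden or dying cells, gave 10 falls and 1 rise among 22, with a median of -0.62. The rise was Apoe, which hepatocytes also make, at 24948, 27052 and 36399.5 CPM in the TA libraries, against 13405, 16182 and 12811 CPM in the model libraries. With Apoe the list summed to 30389 to 41212 CPM in TA, 20514 to 23457 CPM in model and 23054 to 26169.6 CPM in normal libraries. Mmp12, macrophage elastase (ENSMUSG00000049723, chromosome 9, 7344381 to 7369499), stood at 190.4, 191 and 146 CPM in the TA libraries, against 400.4, 431 and 435 CPM in the model libraries, and fell by 1.26 ± 0.28 (adjusted p = 0.00937). Normal libraries had 0.442, 0.426 and 0 CPM. Lgals3, galectin 3, stood at 182, 148 and 139.7 CPM in the TA libraries, against 289, 223 and 240.1 CPM in the model libraries, and fell by 0.68 ± 0.18 (adjusted p = 0.0198). Lipid-associated macrophage falls numbered 3 without TA replicate 2, 3 without TA replicate 3, 4 without model replicate 1 and 3 without model replicate 3, and 18 with library totals. The Lgals3 call ended without TA replicate 2, TA replicate 3, model replicate 1 or model replicate 3 (adjusted p over the alternatives 0.000859 to 0.0757).

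Neutrophil transcripts were rare. Of 13 markers 6 fell, with a median of -1.18 and sums of 31.8 to 57.1 CPM in TA, 68.5 to 129 CPM in model and 7.56 to 31.0 CPM in normal libraries. Retnlg, a resistin-like protein of neutrophils, stood at 0.423, 0.245 and 0.522 CPM in the TA libraries, against 3.09, 2.34 and 3.25 CPM in the model libraries, and fell by 2.84 ± 0.51 (adjusted p = 0.00435). Ngp, a granule protein, stood at 0.423, 0 and 0.348 CPM in the TA libraries, against 1.15, 1.20 and 10.3 CPM in the model libraries, and fell by 3.94 ± 1.13 (adjusted p = 0.0283). Mmp8 and Mmp9, granule proteases, fell by 1.66 ± 0.52 (adjusted p = 0.0388) and 1.10 ± 0.31 (adjusted p = 0.0261). Neutrophil falls numbered 2 without TA replicate 1, 2 without TA replicate 2, 2 without TA replicate 3, 2 without model replicate 1, 1 without model replicate 3 and 3 without normal replicate 2, and 10 with library totals. The Ngp call ended with limma-voom or without TA replicate 2, TA replicate 3 or model replicate 3 (adjusted p over the alternatives 0.0111 to 0.213). The Mmp8 call ended without TA replicate 1, TA replicate 2, model replicate 1, model replicate 2, model replicate 3 or normal replicate 2 (adjusted p over the alternatives 0.00654 to 0.119). The Mmp9 call ended without TA replicate 1, TA replicate 3, model replicate 1 or model replicate 3 (adjusted p over the alternatives 0.00263 to 0.118).

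Lymphocyte markers gave no calls. Of 24 T and NK cell markers none was called by edgeR, 2 were lower and 0 higher at an unadjusted p under 0.05, and the median was -0.45. DESeq2 and limma-voom also called none of them, and with library totals edgeR called 11 lower (a share near the 43.3% of all genes). Klrk1, the activating receptor NKG2D, stood at 2.90, 5.80 and 2.87 CPM in the TA libraries, against 11.1, 5.22 and 5.85 CPM in the model libraries, a change of -0.94 ± 0.43 (adjusted p = 0.135). Cd3g, a chain of the T cell receptor complex, stood at 2.90, 3.35 and 3.39 CPM in the TA libraries, against 5.65, 4.89 and 5.85 CPM in the model libraries, a change of -0.77 ± 0.35 (adjusted p = 0.136). Of 10 B and plasma cell markers none was called, with a median of -0.01 and 1 higher and 0 lower at an unadjusted p under 0.05. DESeq2 and limma-voom called none of these either. With library totals edgeR called 1 lower, Cd22, an inhibitory receptor of B cells (log2 -1.15, adjusted p = 0.0145). With TMM factors Cd22 stood at -0.58 ± 0.27 (adjusted p = 0.141). Fcmr, the receptor for immunoglobulin M, stood at 1.15, 2.29 and 1.22 CPM in the TA libraries, against 0.662, 0.652 and 0.650 CPM in the model libraries, a change of 1.23 ± 0.51 (adjusted p = 0.102). T and NK markers summed to 76.9 to 102 CPM in TA, 108 to 136 CPM in model and 27.9 to 48.2 CPM in normal libraries, and B and plasma cell markers to 29.7 to 51.3 CPM in TA, 35.6 to 48.4 CPM in model and 10.2 to 58.1 CPM in normal libraries.

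**Figure D4:**
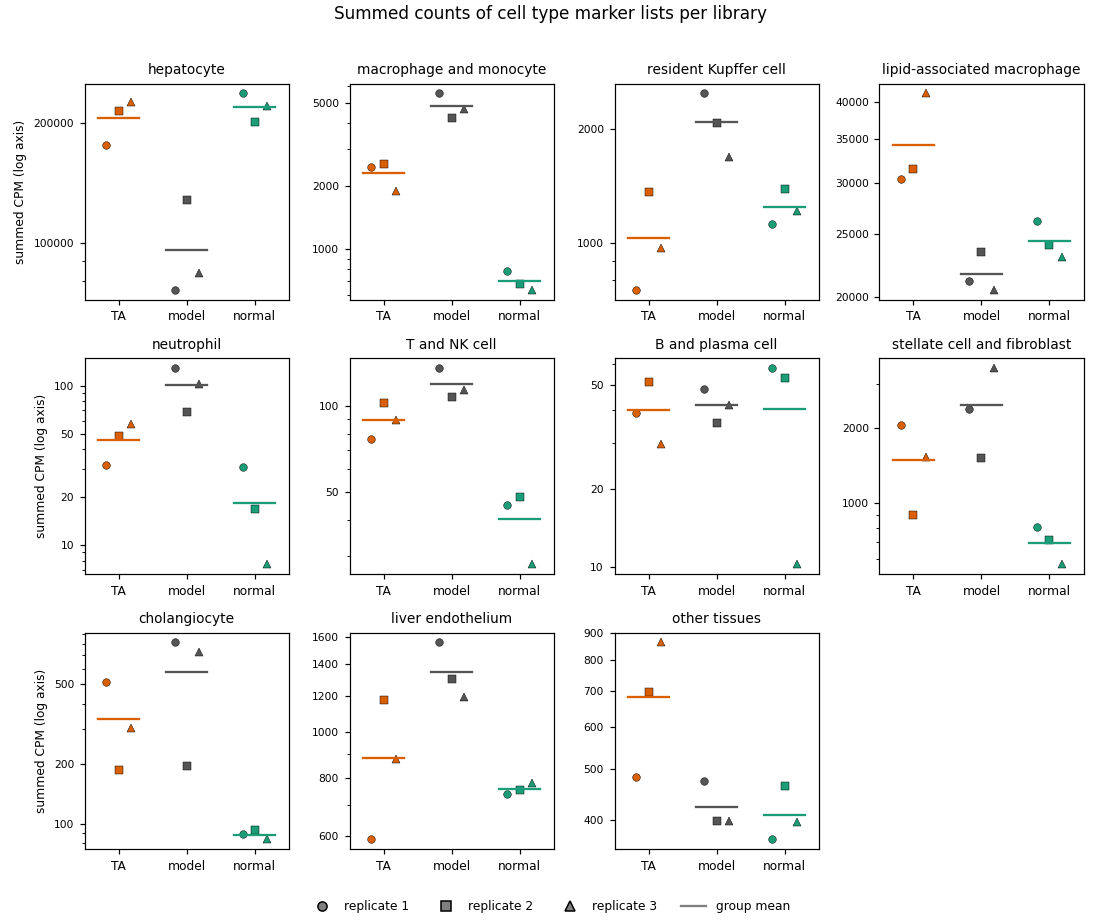
Summed CPM (log axis) of each cell type marker list in every library, with TA at the left, model in the middle and normal at the right; symbols mark replicates and lines mark means (n = 3). Hepatocyte sums are higher, and macrophage and monocyte sums lower, in every TA library than in every model library. Lipid-associated macrophage sums, which include Apoe, are higher in every TA library, against the sign of that list's median. B and plasma cell sums overlap.

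Many inflammatory genes fell. Of 39 cytokines, chemokines and NF-kB targets, 23 fell, with a median of -0.88. Tgfb1, the main fibrogenic cytokine (ENSMUSG00000002603, chromosome 7, 25687002 to 25705077), stood at 30.7, 35.0 and 28.6 CPM in the TA libraries, against 69.8, 54.8 and 64.4 CPM in the model libraries, and fell by 1.003 ± 0.15 (adjusted p = 0.00233). Tlr4, the receptor for bacterial lipopolysaccharide (ENSMUSG00000039005, chromosome 4, 66827584 to 66930284), stood at 5.14, 8.08 and 3.04 CPM in the TA libraries, against 25.4, 16.2 and 17.9 CPM in the model libraries, and fell by 1.87 ± 0.34 (adjusted p = 0.00467). Ccl6, a chemokine of myeloid cells, stood at 23.5, 52.3 and 33.7 CPM in the TA libraries, against 137, 108 and 85.9 CPM in the model libraries, and fell by 1.60 ± 0.28 (adjusted p = 0.00411). Tnfrsf12a, the receptor for TWEAK, stood at 22.7, 16.1 and 18.5 CPM in the TA libraries, against 54.3, 40.0 and 58.0 CPM in the model libraries, and fell by 1.41 ± 0.24 (adjusted p = 0.00371). None of these overlapped between the groups. Nfkbia, the inhibitor of NF-kB, stood at 0.05 ± 0.14 (adjusted p = 0.838). Inflammatory gene falls numbered 14 without TA replicate 2, 15 without TA replicate 3, 10 without model replicate 1 and 10 without model replicate 3, and 33 with library totals. The macrophage sums given above moved with this list, and their part in it was not tested.

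Interferon and antigen presentation genes gave 12 falls among 38, with a median of -0.40. Irf8, a transcription factor of monocytes and dendritic cells, stood at 29.6, 24.3 and 24.9 CPM in the TA libraries, against 77.7, 45.2 and 57.8 CPM in the model libraries, and fell by 1.20 ± 0.20 (adjusted p = 0.00359). Ciita, the master activator of MHC class II, fell by 1.32 ± 0.24 (adjusted p = 0.00502). Cd74, the class II invariant chain, stood at 369, 309 and 274 CPM in the TA libraries, against 957, 561 and 669 CPM in the model libraries, and fell by 1.20 ± 0.25 (adjusted p = 0.00789), and H2-Ab1, a class II chain, fell by 1.13 ± 0.27 (adjusted p = 0.0129). Ifi35, an interferon-induced protein, stood at 0.48 ± 0.21 (adjusted p = 0.127) and was not called. Interferon gene falls numbered 3 without TA replicate 3, 3 without model replicate 1 and 5 without model replicate 3. Library totals called 27 of the 38 lower, with a median of -1.01. The H2-Ab1 call ended without TA replicate 3 or model replicate 1 (adjusted p over the alternatives 0.000233 to 0.0562).

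Of 41 genes of the lysosome and phagosome 20 fell and 1 rose, with a median of -0.56. Ncf1, a cytosolic part of the phagocyte oxidase, stood at 10.9, 16.3 and 12.4 CPM in the TA libraries, against 37.2, 25.6 and 28.3 CPM in the model libraries, and fell by 1.21 ± 0.20 (adjusted p = 0.00332). Rac2, a small GTPase of blood cells, fell by 0.88 ± 0.16 (adjusted p = 0.00481). The member that rose was Lamp2, a lysosomal membrane protein of most cells, at 624, 655 and 765 CPM in the TA libraries, against 372, 536 and 418 CPM in the model libraries. Its log2 fold change was 0.62 ± 0.20 (adjusted p = 0.0427). Lysosomal gene falls numbered 10 without TA replicate 2, 9 without TA replicate 3, 8 without model replicate 1 and 11 without model replicate 3, and 31 with library totals. The Lamp2 call ended with library totals, with no filter, with only 6 libraries or without TA replicate 2, TA replicate 3, model replicate 1, model replicate 3, normal replicate 1, normal replicate 2 or normal replicate 3 (adjusted p over the alternatives 0.00329 to 0.785).

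Many single matrix genes were lower in TA, while their summed level overlapped between the groups. Of 44 genes of matrix remodelling and TGF-beta signalling, 21 fell, with a median of -1.05. The list summed to 2776 to 4089 CPM in TA, 3284 to 5541 CPM in model and 2327 to 2593 CPM in normal libraries. Mmp13, interstitial collagenase (ENSMUSG00000050578, chromosome 9, 7272514 to 7283331), stood at 1.21, 4.001 and 4.26 CPM in the TA libraries, against 15.5, 14.6 and 11.4 CPM in the model libraries, and fell by 2.15 ± 0.45 (adjusted p = 0.00802). Tgfbr1, a receptor for TGF-beta, stood at 54.3, 57.2 and 43.1 CPM in the TA libraries, against 122, 82.6 and 128 CPM in the model libraries, and fell by 1.10 ± 0.19 (adjusted p = 0.00382). Itgav, an integrin that activates latent TGF-beta, stood at 26.8, 33.1 and 37.2 CPM in the TA libraries, against 63.4, 47.1 and 76.9 CPM in the model libraries, and fell by 0.95 ± 0.19 (adjusted p = 0.00678). None of the 3 overlapped. Fn1, fibronectin, which hepatocytes secrete into plasma, stood at 0.69 ± 0.25 (adjusted p = 0.0667) and was not called. The fibrillar collagen Col1a1 (named after its value was seen) stood at 147, 36.0 and 83.0 CPM in the TA libraries, against 183, 64.6 and 329 CPM in the model libraries, a change of -1.12 ± 0.56 (adjusted p = 0.175) that did not pass the test. Matrix gene falls numbered 6 without TA replicate 2, 8 without TA replicate 3, 7 without model replicate 1 and 5 without model replicate 3, and 35 with library totals.

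Stellate cell and fibroblast markers gave 3 falls among 26 (a share near the 11.1% of all genes), with a median of -0.68 and sums of 898 to 2057 CPM in TA, 1519 to 3486 CPM in model and 569 to 804 CPM in normal libraries. Single libraries decided this count. Stellate falls numbered 10 without TA replicate 1, 8 without model replicate 2 and 2 without TA replicate 3, and all 3 ended without TA replicate 2, model replicate 1 or model replicate 3. The median lay between -1.15 and -0.35 with 1 library left out. Library totals called 17 lower. Lox and Loxl2, which cross-link collagen, fell by 1.56 ± 0.42 (adjusted p = 0.0224) and 1.41 ± 0.38 (adjusted p = 0.0223). Lox stood at 4.83, 2.94 and 4.18 CPM in the TA libraries, against 11.3, 5.87 and 18.1 CPM in the model libraries. Rgs5, a gene of pericytes, stood at 50.2, 41.0 and 83.3 CPM in the TA libraries, against 127, 76.7 and 126 CPM in the model libraries, and fell by 0.92 ± 0.27 (adjusted p = 0.0296). Fbn1, fibrillin, stood at -1.61 ± 0.56 (adjusted p = 0.0568) and Acta2, the smooth muscle actin of activated stellate cells, at 0.21 ± 0.53 (adjusted p = 0.806), neither called. Lox, Loxl2 and Fbn1 are also products of other cells. The Lox and Loxl2 calls ended without TA replicate 2, TA replicate 3, model replicate 1 or model replicate 3 (adjusted p over the alternatives 0.00262 to 0.118 and 0.00301 to 0.108). The Rgs5 call ended with only 6 libraries or without TA replicate 1, TA replicate 2, model replicate 1 or model replicate 3 (adjusted p over the alternatives 0.00226 to 0.103).

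Cholangiocyte markers were few and uneven. Of 17 tested 1 fell, a share below the 11.1% of all genes. The median was -1.07, and sums were 186 to 515 CPM in TA, 194 to 812 CPM in model and 83.9 to 92.6 CPM in normal libraries. Model replicate 2 decided the count, since 10 fell without it. Cholangiocyte falls numbered 2 without TA replicate 1 and 8 with library totals (a share near the 43.3% of all genes). The median lay between -1.78 and -0.68 with 1 library left out. Anxa3, an annexin, was the called member, at 25.6, 23.1 and 20.4 CPM in the TA libraries, against 52.8, 39.5 and 50.4 CPM in the model libraries. Its log2 fold change was -1.04 ± 0.16 (adjusted p = 0.00248). Cd24a, a surface protein of duct cells, stood at 17.9, 7.27 and 14.4 CPM in the TA libraries, against 49.8, 8.42 and 51.6 CPM in the model libraries, with model replicate 2 below the TA libraries' mean, and its change of -1.47 ± 0.53 (adjusted p = 0.0651) was not called. Bicc1, an RNA-binding protein, and Ehf, an epithelial transcription factor, stood at -1.79 ± 0.65 (adjusted p = 0.0679) and -1.54 ± 0.68 (adjusted p = 0.124), neither called.

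Liver endothelial markers gave 8 falls among 26, with a median of -0.51 and sums of 591 to 1176 CPM in TA, 1189.8 to 1560.1 CPM in model and 739 to 779 CPM in normal libraries. Lyve1, a hyaluronan receptor of sinusoidal and lymphatic endothelium (ENSMUSG00000030787, chromosome 7, 110850607 to 110863239), stood at 7.92, 31.4 and 22.4 CPM in the TA libraries, against 116, 49.1 and 73.7 CPM in the model libraries, and fell by 1.96 ± 0.43 (adjusted p = 0.00940). Flt4, a receptor for vascular growth factors, fell by 1.15 ± 0.26 (adjusted p = 0.0111). Stab1 and Stab2, scavenger receptors of the sinusoids, fell by 0.88 ± 0.21 (adjusted p = 0.0138) and 0.73 ± 0.20 (adjusted p = 0.0249). Ramp2 stood at 0.40 ± 0.25 (adjusted p = 0.265) without a call. Endothelial falls numbered 4 without TA replicate 1, 2 without TA replicate 3 and 3 without model replicate 1. Library totals called 22 of the 26 lower, with a median of -1.12. The Flt4 call ended without TA replicate 3 (adjusted p over the alternatives 0.000418 to 0.0506). The Stab1 call ended without TA replicate 3 or model replicate 1 (adjusted p over the alternatives 0.000840 to 0.0580). The Stab2 call ended with only 6 libraries or without TA replicate 1, TA replicate 3 or model replicate 1 (adjusted p over the alternatives 0.00112 to 0.0910).

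Cell cycle genes had the lowest median of the lists. Of 37 tested 23 fell, with a median of -1.27, against 1.33 for model against normal and 0.53 for TA against normal, which share the model or TA libraries. Mcm2, a subunit of the replication helicase (ENSMUSG00000002870, chromosome 6, 88883474 to 88898780), stood at 4.47, 2.53 and 2.87 CPM in the TA libraries, against 10.4, 9.46 and 11.6 CPM in the model libraries, and fell by 1.66 ± 0.25 (adjusted p = 0.00258). Top2a, the topoisomerase of dividing cells (ENSMUSG00000020914, chromosome 11, 98992943 to 99024189), stood at 5.50, 5.55 and 2.001 CPM in the TA libraries, against 24.0, 16.3 and 14.7 CPM in the model libraries, and fell by 2.06 ± 0.35 (adjusted p = 0.00372). Ccna2, cyclin A2, stood at 1.93, 0.980 and 1.91 CPM in the TA libraries, against 7.68, 9.40 and 5.33 CPM in the model libraries, and fell by 2.20 ± 0.38 (adjusted p = 0.00388). Ccnd2, cyclin D2, fell by 1.31 ± 0.21 (adjusted p = 0.00322). All 4 were lower in every TA library than in every model library. Ccne1, cyclin E1, stood at 3.51, 6.04 and 3.74 CPM in the TA libraries, against 3.05, 2.23 and 2.21 CPM in the model libraries, above the model libraries, but its change of 0.82 ± 0.46 (adjusted p = 0.222) was not called. Cell cycle falls numbered 13 without TA replicate 3, and 30 with library totals.

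Of 40 genes of apoptosis, necroptosis, pyroptosis, p53 and ferroptosis 9 fell, with a median of -0.34. Acsl4, which loads membranes with polyunsaturated fat and promotes ferroptosis (ENSMUSG00000031278, chromosome X, 142317993 to 142390535), stood at 50.8, 53.8 and 46.2 CPM in the TA libraries, against 119, 95.3 and 109.5 CPM in the model libraries, and fell by 1.10 ± 0.14 (adjusted p = 0.00181). In normal libraries it had 101, 102 and 93.3 CPM, above the TA libraries. Mlkl, the effector of necroptosis, stood at 7.25, 6.94 and 6.44 CPM in the TA libraries, against 15.9, 18.1 and 17.6 CPM in the model libraries, and fell by 1.32 ± 0.17 (adjusted p = 0.00183). Casp1, the inflammatory caspase, fell by 1.11 ± 0.27 (adjusted p = 0.0138), and the cystine transporter gene Slc7a11 by 1.25 ± 0.29 (adjusted p = 0.0127). Ftl1, ferritin light chain, stood at 0.55 ± 0.23 (adjusted p = 0.103) and was not called. Cell death gene falls numbered 4 without TA replicate 3, 3 without model replicate 1 and 4 without model replicate 3. Library totals called 28 of the 40 lower, with a median of -0.92. The Casp1 and Slc7a11 calls ended without model replicate 1 (adjusted p over the alternatives 0.00102 to 0.0611 and 0.00112 to 0.0578).

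Immediate early genes, which cells switch on within minutes of a stimulus, more often fell than rose. Of 27 tested 10 fell and 2 rose, against 11.1% and 11.8% of all genes, with a median of -0.59. Atf3, a stress-induced factor, stood at 31.2, 22.6 and 21.0 CPM in the TA libraries, against 61.6, 49.4 and 66.1 CPM in the model libraries, and fell by 1.24 ± 0.19 (adjusted p = 0.00265). Klf6, a zinc finger factor, fell by 1.27 ± 0.23 (adjusted p = 0.00435), the phosphatase gene Dusp5 by 1.39 ± 0.26 (adjusted p = 0.00530) and Egr3 by 1.86 ± 0.42 (adjusted p = 0.0111). The 2 rises were Ier2 and Egr1 (log2 1.62, named after its value was seen). Ier2 stood at 51.3, 68.2 and 97.5 CPM in the TA libraries, against 39.1, 33.2 and 37.2 CPM in the model libraries, and rose by 0.98 ± 0.23 (adjusted p = 0.0135). Immediate early falls numbered 5 without TA replicate 2, 6 without TA replicate 3, 6 without model replicate 1 and 3 without model replicate 3, and 16 with library totals, under which Egr1 was the rise. The Egr3 call ended without model replicate 3 (adjusted p over the alternatives 0.000964 to 0.0563). The Ier2 call ended with library totals or without TA replicate 3 (adjusted p over the alternatives 0.00192 to 0.180).

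Of 35 genes of the unfolded protein and integrated stress responses, 8 rose and 4 fell, with a share of falls near that of all genes (11.1%). The median of 0.39 became -0.19 with library totals, which called Herpud1 higher and 7 members lower. Fgf21, a hormone that starved or stressed liver releases (ENSMUSG00000030827, chromosome 7, 45613886 to 45615490), stood at 14.5, 7.35 and 10.8 CPM in the TA libraries, against 72.5, 23.2 and 67.5 CPM in the model libraries, and fell by 2.32 ± 0.47 (adjusted p = 0.00700). Normal libraries had 2.80, 6.05 and 1.48 CPM. Psat1, of serine synthesis and a target of ATF4 (ENSMUSG00000024640, chromosome 19, 15904678 to 15947337), stood at 3.99, 0.980 and 1.48 CPM in the TA libraries, against 11.2, 8.86 and 16.5 CPM in the model libraries, and fell by 2.46 ± 0.46 (adjusted p = 0.00531). TA and normal ranges overlapped for Psat1, whose normal libraries had 1.11, 2.13 and 1.26 CPM. The other falls were Atf3 and Atf5, the second at log2 -0.78 and named after its value was seen. Herpud1, of the machinery that removes misfolded proteins from the endoplasmic reticulum, stood at 824, 839.7 and 767 CPM in the TA libraries, against 253, 335 and 465 CPM in the model libraries, and rose by 1.21 ± 0.23 (adjusted p = 0.00534). Stress response rises numbered 3 without TA replicate 1, 2 without model replicate 1, 3 without model replicate 3 and 4 without normal replicate 2.

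Antioxidant genes were called in both directions. Of 35 NRF2 targets and glutathione genes 11 rose and 6 fell, with a median of 0.23 that became -0.31 with library totals. Those totals called 2 higher (Cat and Mgst1) and 12 lower, against 3.04% and 43.3% of all genes. Hmox1 (ENSMUSG00000005413, chromosome 8, 75093621 to 75100589), also counted among the Kupffer cell markers, stood at 59.5, 89.9 and 77.7 CPM in the TA libraries, against 282, 179 and 233 CPM in the model libraries, and fell by 1.61 ± 0.22 (adjusted p = 0.00190). Srxn1, sulfiredoxin, stood at 78.4, 43.3 and 58.6 CPM in the TA libraries, against 109.6, 133 and 140.5 CPM in the model libraries, and fell by 1.09 ± 0.20 (adjusted p = 0.00533). Cat, catalase of peroxisomes, stood at 3565, 3469.8 and 4359 CPM in the TA libraries, against 1029.6, 1979.6 and 1243 CPM in the model libraries, and rose by 1.42 ± 0.28 (adjusted p = 0.00597), with every TA library above every model library. Antioxidant rises numbered 7 without TA replicate 2, 3 without TA replicate 3, 3 without model replicate 1 and 5 without model replicate 3, and falls 3 without model replicate 1.

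Clock genes differed between the groups, at an unstated hour of collection. The core clock is a daily loop in which BMAL1 (gene Arntl) and CLOCK drive Per, Cry and Nr1d genes, and the outputs Dbp, Tef and Hlf follow. Of 24 genes tested 10 rose, with a median of 0.70 by TMM factors and 0.10 by library totals, which called 6 higher. Those totals also called 3 lower, namely Lonrf3, Clock and Arntl, the last at log2 -1.62 (adjusted p = 0.0325). Cry2, a repressor of the loop (ENSMUSG00000068742, chromosome 2, 92403646 to 92434043), stood at 29.3, 31.7 and 21.0 CPM in the TA libraries, against 10.6, 10.1 and 10.4 CPM in the model libraries, and rose by 1.40 ± 0.18 (adjusted p = 0.00176). Nr1d1, the repressor REV-ERB alpha (ENSMUSG00000020889, chromosome 11, 98767932 to 98775333), stood at 191, 130.3 and 131 CPM in the TA libraries, against 57.4, 56.4 and 47.4 CPM in the model libraries, and rose by 1.49 ± 0.25 (adjusted p = 0.00372). Hlf, an output factor, stood at 36.3, 73.0 and 76.5 CPM in the TA libraries, against 20.4, 26.4 and 11.7 CPM in the model libraries, and rose by 1.67 ± 0.32 (adjusted p = 0.00567). For these 3 genes no TA library overlapped a model library, and for Nr1d1 the normal libraries, at 27.6, 29.1 and 52.8 CPM, were also below. Usp2, a clock-driven deubiquitinase, stood at 32.2, 82.4 and 61.6 CPM in the TA libraries, against 20.8, 10.8 and 5.93 CPM in the model libraries, and rose by 2.23 ± 0.43 (adjusted p = 0.00570). Arntl stood at 8.64, 2.69 and 1.65 CPM in the TA libraries, against 4.81, 10.8 and 13.4 CPM in the model libraries, with overlap, and its change of -1.11 ± 0.49 (adjusted p = 0.126) did not pass the test with TMM factors. Normal libraries had 40.5, 36.8 and 35.5 CPM of Arntl, above all others. Clock gene rises numbered 6 without TA replicate 2 and 6 without TA replicate 3. A difference in the hour of collection cannot be told apart from the treatment here.

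**Figure D5:**
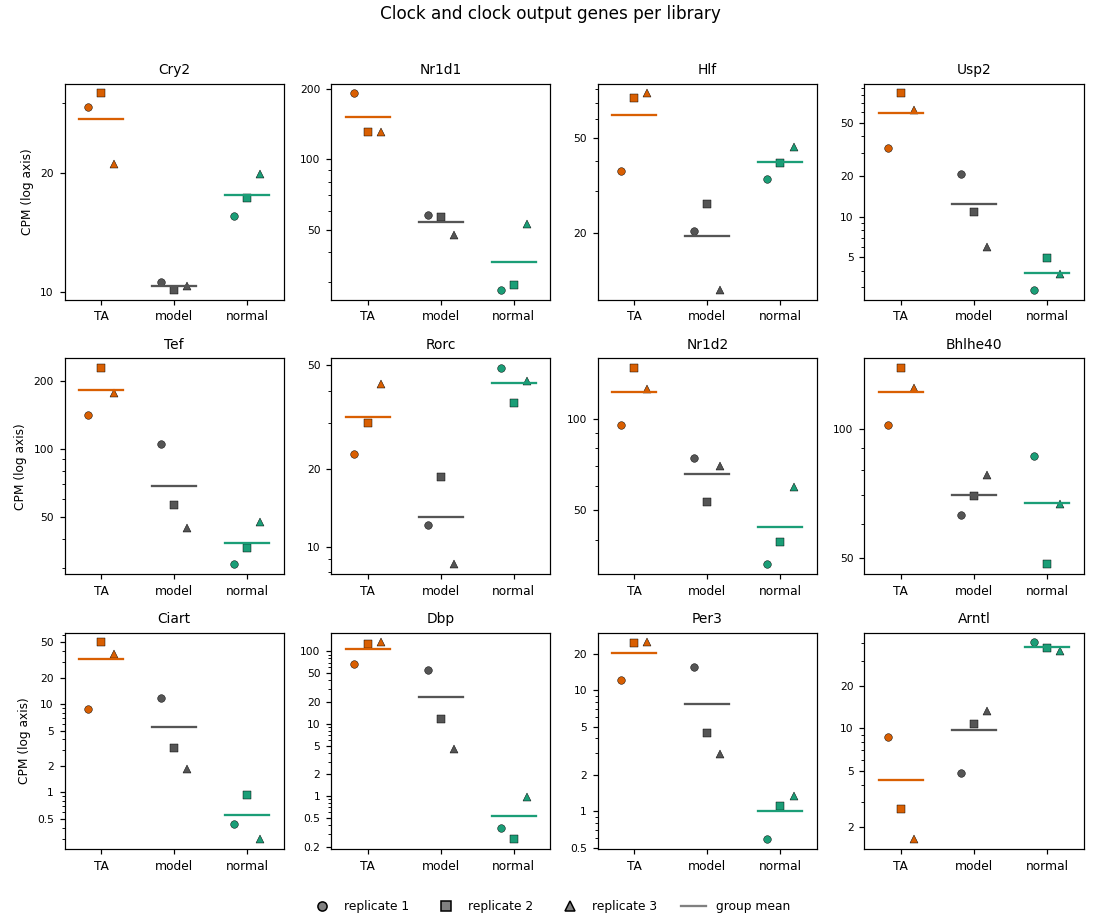
CPM (log axis) of 10 called clock genes, Per3 and Arntl in each library, with TA at the left, model in the middle and normal at the right; symbols mark replicates and lines mark means (n = 3). For Nr1d1, Usp2 and Tef every TA library lies above every model and normal library, and Arntl is highest in the normal libraries.

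Markers of other tissues gave 6 rises and 1 fall among 11, and their sums were 482 to 864 CPM in TA, 398 to 474 CPM in model and 369 to 465 CPM in normal libraries. Library totals called 4 higher (Alas2, Cfd, Hba-a1 and Hbb-bt) and 4 lower (Cidec, Fabp2, Tff3 and Vil1). Most rises were of red cell genes. Hbb-bt, a beta globin gene, stood at 25.9, 42.1 and 51.4 CPM in the TA libraries, against 16.3, 14.1 and 17.1 CPM in the model libraries, and rose by 1.33 ± 0.25 (adjusted p = 0.00556). Hba-a1, an alpha globin gene, stood at 102, 198 and 255 CPM in the TA libraries, against 82.5, 62.3 and 72.4 CPM in the model libraries, and rose by 1.35 ± 0.29 (adjusted p = 0.00901), and Hbb-bs rose by 1.25 ± 0.28 (adjusted p = 0.00940). Globin genes are near-identical pairs, so reads may be divided wrongly within each pair. Cfd, the adipocyte protease adipsin, had 1.15, 0.245 and 1.22 CPM in TA libraries and was listed at 0 in every model library. Set against 3 counts, the floor taken for the whole model group, its 36 TA counts were at least 19.1-fold higher. The list median was 1.25 with its fitted value and with that bound. The fall was Cidec, described above with the lipid droplet genes. The Hbb-bs call ended with library totals (adjusted p over the alternatives 0.000221 to 0.0596).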

How the data were processed

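Liver RNA of 9 mouse libraries was compared in the groups given by the labels (TA, model and normal, 3 each). Extraction used Trizol and library preparation the NEBNext Ultra kit, per the labels' protocols. The submitters' processing notes name mm9, while no source used here names the aligner, the counter or the use of strand. The deposited table held raw read counts per gene, per the file headers, and these were tested. FPKM values that the authors placed beside them differed from counts scaled by length and library total by at most 3.54 ppm, and entered no test. The authors' deposited comparison table held p-values, adjusted p-values, the ratio of both group means and a mean normalized signal per gene, and was made with DESeq by its name. Its adjusted p and its direction alone were used. A single count line without values was skipped.

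Genes passed edgeR's filterByExpr (at least 10 counts, 15 in all) before TMM scaling, and 1 model of all 9 libraries was fitted with group as its factor (edgeR 4.0.16, R 4.3.3). The TA minus model contrast was tested by the quasi-likelihood F test, with Benjamini-Hochberg adjustment over all genes tested, and adjusted p under 0.05 made a call. Depth was 13710002 to 16475794 counts per library, so 10 counts are below 1 CPM. The code was tested on simulated data. Alternatives used DESeq2 size factors, library totals, no filter, a stricter filter (each library of some group at 10 counts or more), only the 6 compared libraries, a replicate block, limma-voom (limma 3.58.1), the Wald test of DESeq2 1.42.0, a minimum change of 2-fold, and each of the 9 libraries left out in turn.

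The comparison, the 37 gene lists and the cell type markers were chosen with earlier results of these data known. Of 1077 distinct list genes, 1065 were in the table (3 through a synonym) and 1015 were tested. The text names the 10 largest rises and falls among called genes that averaged 10 CPM or more in either group without overlap, and the 6 most abundant called genes not encoded in mitochondria. It also names, per list, the 4 members with the smallest p plus the best-ranked member of opposite sign. Genes named outside this rule are marked as such, and some genes under it are not reported here. Coordinates are GENCODE M21 gene bounds on GRCm38, and promoters come from RefSeq on GRCm38.p6. Replicate numbers did not pair the libraries, since 1 of 9 pairs with a shared number correlated above 0.1.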

Additional observations from a re-analysis of the deposited data

How the results depend on the processing

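Library totals in place of TMM factors gave 6122 calls, 401 higher and 5721 lower in TA, and requiring a change of 2-fold or more gave 1440 calls, 579 higher and 861 lower. With 1 library left out, calls ranged between 1436 (without model replicate 3) and 3793 (without model replicate 2), the higher calls between 656 and 2074 and the lower calls between 702 and 1719. Without TA replicate 3 there were 1651 calls and without model replicate 1 there were 1444. In each case where leaving out a library left 2 in a group, fewer samples were tested. The cause of the other differences was not tested. DESeq2 size factors, no filter, a stricter filter, 6 libraries only, limma-voom and DESeq2's Wald test gave counts within 1.5 times the reported ones, between 2287 and 3622. The replicate numbers did not pair the libraries, and a fit with the replicate number as a block called 2294 genes, 1131 higher and 1163 lower in TA. It ended 11 of the named calls, those of Alb, Apoe, Apoa1, Gc, Mmp9, Ngp, Mmp8, Rps2, Lamp2, Hsd17b6 and Trub2. Of 156 named genes that were called, 107 kept the call under all 17 alternatives other than the minimum change, 49 lost it in at least 1, and none reversed. With 3 libraries a group and a filter at 10 counts, changes in rarer transcripts were not detectable at this depth.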

Other observations

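In 71 genes (0.538% of those tested) every TA library lay above all 6 model and normal libraries, with a call against both groups, and in 24 genes (0.182%) every TA library lay below all 6, again with both calls. The rule was chosen after the values were seen, and the 2 comparisons share the TA libraries. Cyp2a5, a coumarin hydroxylase whose reads are hard to separate from those of Cyp2a4, had 559, 747 and 1271 CPM in TA libraries, 233, 182 and 257 CPM in model libraries and 205, 162 and 204 CPM in normal libraries. Foxq1, a forkhead transcription factor, had 16.7, 20.0 and 43.8 CPM in TA libraries, 6.18, 2.77 and 3.55 CPM in model libraries and 13.8, 6.73 and 5.48 CPM in normal libraries. Coq10b, a coenzyme Q-binding protein of mitochondria, had 31.8, 62.8 and 70.1 CPM in TA libraries, 24.5, 18.1 and 15.2 CPM in model libraries and 15.7, 18.1 and 25.8 CPM in normal libraries. TA replicate 1 was the lowest TA library in all 3 of these genes.

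Clock-linked genes were among them. Dbp, an output factor of the clock, had 66.6, 125 and 133 CPM in TA libraries, 54.5, 11.7 and 4.51 CPM in model libraries and 0.368, 0.256 and 0.963 CPM in normal libraries, and the change from model was 2.19 ± 0.67 (adjusted p = 0.0368) by edgeR's quasi-likelihood test. Model replicate 1 lay just below the TA libraries. Tef, a related factor, had 141, 228 and 177 CPM in TA libraries, 105, 56.5 and 45.0 CPM in model libraries and 30.9, 36.6 and 47.6 CPM in normal libraries.

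Among genes below both groups, Tubb2a, a beta tubulin, had 83.3, 29.5 and 55.8 CPM in TA libraries, 139.5, 184 and 211 CPM in model libraries and 113, 123 and 120.2 CPM in normal libraries. Tubb2a fell against model by 1.66 ± 0.31 (adjusted p = 0.00501), by the same test. For Bcl6 the normal libraries had 82.8, 100.03 and 115 CPM, above all other libraries.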
